A study of Mus musculus with 6 samples.

Results

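Brown adipose tissue can spend energy as heat by routes that do not need the uncoupling protein UCP1, and 10 genes of these routes were followed here in wild type and Cd36 null mice. They were taken by name as Ckb, Ckmt1, Ckmt2, Gatm, Gamt, Slc6a8, Alpl, Atp2a2, Ryr2 and Pm20d1, and every probe that the platform annotation assigns to them was used. These were 19 of the 45267 probes of the array and 10 of the 19056 genes it names. Of the 10 genes, 8 were detected on enough arrays to be tested, by 11 probes, while Ckmt1 and Gatm lay at background throughout.

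The tissue came from 3-month-old male mice on a C57BL6J background that had spent the night without food, in both genotypes. The wild type group and the Cd36 null group, which lacks a fatty acid transporter of the cell membrane, each had 3 arrays. The arrays were Illumina bead arrays of 1 colour, hybridised with biotin-labelled copies of total RNA. No label limits the loss of Cd36 to a tissue, and none says whether each sample of a genotype was a different animal. The p-values thus rest on the spread from sample to sample, part of which may be technical. The wild type arrays detected 16929 to 17035 probes each and the null arrays 18139 to 19199. Over the tested probes, arrays of the same genotype correlated at r = 0.970 to 0.988, and arrays of different genotypes at 0.955 to 0.966.

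In the creatine cycle, creatine kinase in the mitochondrion charges creatine to phosphocreatine, the phosphate is released again, and the regenerated creatine calls for more ATP. Creatine is made by Gatm and Gamt and taken up by Slc6a8. In the calcium cycle, the pump SERCA2b, encoded by Atp2a2, moves calcium into the endoplasmic reticulum at the cost of ATP and the ryanodine receptor Ryr2 lets it out. Pm20d1 is a secreted enzyme that joins fatty acids to amino acids, and the products uncouple mitochondria.

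Ckb, the brain-type creatine kinase that thermogenic fat also expresses, was 3.53-fold higher in Cd36 null brown fat, and Alpl, the alkaline phosphatase that hydrolyses phosphocreatine in mitochondria of thermogenic fat, was 1.95-fold higher. No other member passed the test. The test was limma's moderated test over 17912 probes, and a change was called where the Benjamini-Hochberg adjusted p was under 0.05. With each gene represented by its brightest tested probe, 2 of 8 members rose, against 5.73% of all 10151 tested genes, and 0 fell, against 2.11%. The members were chosen with earlier results of these data known, so the contrast with these shares is not independent support. Of the 11 tested probes 2 rose and 0 fell, against 5.01% and 2.23% of all tested probes. At an unadjusted p under 0.05 the counts were also 2 and 0, and the fits with the authors' values, without background correction and with median scaling each gave 2 and 0 as well. The median difference was 0.21 log2 over the 8 members and -0.03 over all tested genes. The members' median fell between Atp2a2 (0.09) and Ryr2 (0.32). Ryr2 lay near background and entered the test through its null arrays, so little rests on that contrast.

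**Figure D1:**
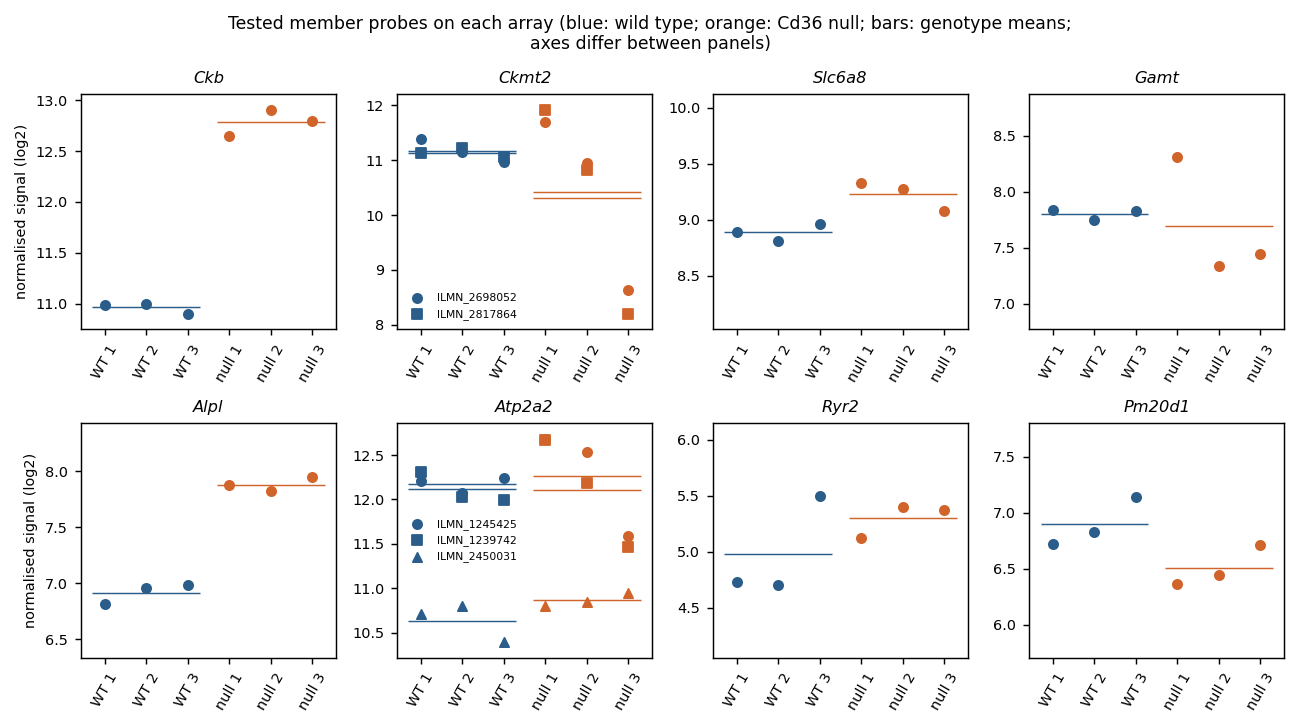
Normalised signal (log2) of every tested probe of the 8 tested genes on the 3 wild type (blue) and 3 Cd36 null (orange) arrays; points are arrays, bars are genotype means, and marker shapes tell probes of 1 gene apart. Ckb lies between 10.90 and 11 in wild type and between 12.65 and 12.90 in null tissue, and null replicate 3 is low for both Ckmt2 probes.

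The stretches of 250 bases upstream of the annotated start of the genes that rose are shown because these are the members whose transcript changed. They were taken from the RefSeq promoter table of GRCm38.p6, which held 7 of the 10 members in 9 windows, and both lie on the minus strand. For Alpl, which has another annotated start, the window of the outer start is shown. Each reads 5′ to 3′, and capitals mark any match to the motifs searched on both strands.
Ckb, chr12:111672339-111672588: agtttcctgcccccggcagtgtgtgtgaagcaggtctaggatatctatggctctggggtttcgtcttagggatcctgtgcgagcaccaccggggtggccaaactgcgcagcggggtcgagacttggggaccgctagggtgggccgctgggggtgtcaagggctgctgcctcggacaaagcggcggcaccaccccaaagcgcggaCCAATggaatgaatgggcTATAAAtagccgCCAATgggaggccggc
Alpl, chr4:137796385-137796634: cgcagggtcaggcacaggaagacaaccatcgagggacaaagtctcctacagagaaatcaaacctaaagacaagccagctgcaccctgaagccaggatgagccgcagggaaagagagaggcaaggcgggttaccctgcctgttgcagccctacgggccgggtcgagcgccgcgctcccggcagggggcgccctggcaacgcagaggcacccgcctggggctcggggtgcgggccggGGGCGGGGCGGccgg
The Ckb window held the TATA box letters TATAAA, starting 28 bases before the start, which 12.4% of all 32851 windows of this length hold. It also held CCAAT, as 2 copies starting 46 and 16 bases before the start, which 33.8% of windows hold at least once. The Alpl window had neither and held 2 overlapping copies of the GC box letters GGGCGG, which 32.7% of windows hold. Neither window held the cAMP response element TGACGTCA (1.55% of windows), the ERR half-site AAGGTCA (4.08%) or TGATGNAA, the composite element of ATF4 and C/EBP factors (3.45%), so these windows shared no searched motif. The window of the inner Alpl start held TATAAA on the opposite strand only, where the gene's strand reads TTTATA, beginning 192 bases before that start. These matches describe letters only.

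Ckb was the member with the largest difference. Its single probe read 10.98, 11 and 10.90 log2 in wild type and 12.65, 12.90 and 12.79 in null tissue (replicates 1 to 3). Every null array lay far above every wild type array, and the spread within each genotype was small. Raw intensities ran from 1843 to 2178 in wild type and from 6732 to 7913 in null tissue. The mean rose from 10.96 ± 0.05 to 12.78 ± 0.13 (SD, n = 3 per genotype), a difference of 1.82 ± 0.15 log2 (SE, adjusted p = 3.82e-04 in limma), with a 95% confidence interval of 1.47 to 2.17. On the authors' log2 values the difference was 1.80. In bulk tissue, a change in the number of cells of a type and a change in RNA per cell cannot be told apart.

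Alpl was a dimmer probe with a tight separation. It read 6.81, 6.96 and 6.98 log2 in wild type and 7.87, 7.82 and 7.95 in null tissue (replicates 1 to 3). The genotypes did not overlap, and both had an SD under 0.1 log2. Raw intensities were 174, 211 and 205 in wild type and 347, 320 and 351 in null tissue, and the probe was detected on all 6 arrays. The difference was 0.96 ± 0.15 log2 (SE, adjusted p = 0.00624 in limma, 95% confidence interval 0.62 to 1.30). It was 0.80 on the authors' values, whose larger offset shrinks dim probes, and 0.60 without background correction, and it passed in each of these.

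Slc6a8, the plasma membrane transporter that brings creatine into the cell, was read by 1 probe. It stood at 8.89, 8.81 and 8.97 log2 in wild type and 9.33, 9.28 and 9.08 in null tissue (replicates 1 to 3). All null arrays lay above all wild type arrays, with null replicate 3 only just above the highest of them. The difference of 0.34 ± 0.16 log2 (SE) did not pass (adjusted p = 0.254 in limma), and its 95% confidence interval ran from -0.01 to 0.69. Non-overlap alone is common on these arrays. It held for 29.4% of all tested genes, with 15.6% having every null array above and 13.8% every null array below, and for 4 of the 8 members, namely Ckb, Alpl and Slc6a8 above and Pm20d1 below.

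The genes of creatine synthesis showed no change that passed. Gatm, which makes guanidinoacetate from arginine and glycine, had a single probe with raw intensities of 94.5 to 109.9 that was detected on none of the 6 arrays (lowest detection p-value of 0.389). Its transcript was therefore not well above background in either genotype, and no fold is given. Gamt, which methylates guanidinoacetate to creatine, was detected on all 6 arrays. It read 7.83, 7.75 and 7.83 log2 in wild type and 8.31, 7.34 and 7.44 in null tissue (replicates 1 to 3). The null arrays spread to both sides of the wild type arrays, with null replicate 1 the highest of all. The difference was -0.11 ± 0.25 log2 (SE, adjusted p = 0.861 in limma, 95% confidence interval -0.67 to 0.46), and its sign turned to 0.048 with median scaling.

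**Figure D2:**
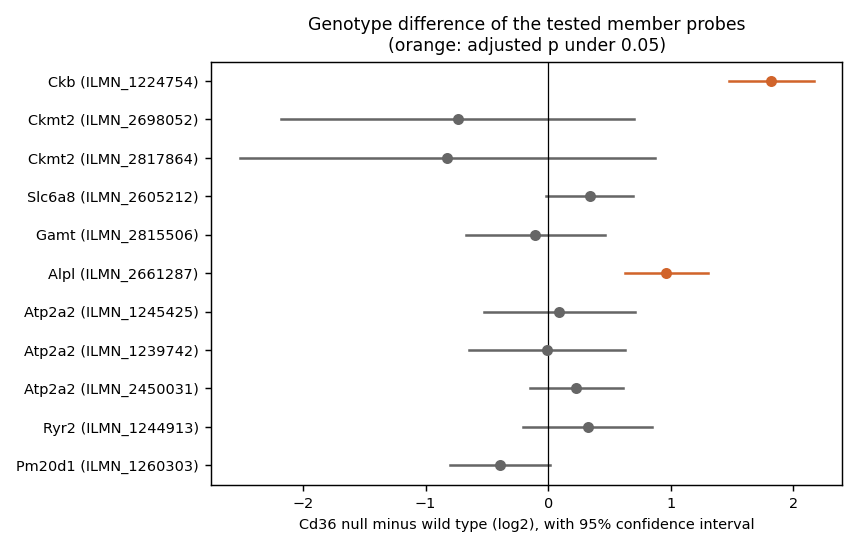
Difference of Cd36 null minus wild type (log2, points) with its 95% confidence interval (lines) for the 11 tested probes, labelled by gene and probe; orange marks an adjusted p under 0.05. Ckb (1.82) and Alpl (0.96) lie clear of 0, and the Ckmt2 intervals are the widest.

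Of the mitochondrial creatine kinases, only Ckmt2 was detected. Ckmt1, the ubiquitous form, had 2 probes that were detected on 0 of 6 arrays (lowest detection p-value of 0.139), with intensities between 89.8 and 117.9. Ckmt2, the sarcomeric form, was bright on both of its probes. The brighter read 11.39, 11.14 and 10.96 log2 in wild type and 11.70, 10.95 and 8.63 in null tissue (replicates 1 to 3). The other read 11.13, 11.21 and 11.05 in wild type and 11.91, 10.81 and 8.20 in null tissue. On both probes null replicate 1 was the highest array and null replicate 3 by far the lowest, so that the null group enclosed the wild type group. The SD was 0.21 and 0.08 in wild type but 1.60 and 1.91 in null tissue. The differences were -0.74 ± 0.64 and -0.82 ± 0.75 log2 (SE, adjusted p = 0.564 and 0.588 in limma), with 95% confidence intervals of -2.18 to 0.70 and -2.51 to 0.87. Without null replicate 3 the brighter probe differed by 0.16 (adjusted p = 0.799), so the sign of the difference rests on that array.

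Atp2a2, the calcium pump of the endoplasmic and sarcoplasmic reticulum, had 4 probes, and its tested probes did not run alike. The gene makes SERCA2a, the form of heart and slow muscle, and the widely expressed SERCA2b, and the sources used here do not say which form each probe reads. The brightest probe, annotated to the RefSeq transcript, read 12.21, 12.08 and 12.24 log2 in wild type and 12.68, 12.53 and 11.58 in null tissue (replicates 1 to 3). A second probe annotated to the RefSeq transcript had 12.31, 12.03 and 11.99 in wild type and 12.66, 12.18 and 11.46 in null tissue. On both of these, null replicate 1 was the highest array and null replicate 3 the lowest. The probe annotated to a cDNA clone read 10.71, 10.80 and 10.39 in wild type and 10.80, 10.84 and 10.95 in null tissue, with null replicate 3 its highest array. Their differences were 0.09 ± 0.27, -0.01 ± 0.28 and 0.23 ± 0.17 log2 (SE, adjusted p = 0.894, 0.992 and 0.490 in limma). The 95% confidence intervals were -0.53 to 0.70, -0.65 to 0.63 and -0.15 to 0.61. The fourth probe was detected on no array (lowest detection p-value of 0.475).

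Ryr2, the calcium release channel, was hardly measurable. Of its 5 probes, 4 were detected on 0 of 6 arrays. The remaining probe was detected on 1 of 3 wild type and 3 of 3 null arrays, at 4.73, 4.70 and 5.50 log2 in wild type and 5.12, 5.40 and 5.37 in null tissue (replicates 1 to 3). Only its null arrays brought this probe into the test, and for such probes the filter itself favours a rise. Wild type replicate 3 was the highest array, and the genotypes overlapped. The difference of 0.32 ± 0.23 log2 (SE) did not pass (adjusted p = 0.483 in limma, 95% confidence interval -0.20 to 0.85), and the size was not stable. It was 0.58 without wild type replicate 3 (adjusted p = 0.10), 0.20 and 0.19 without the first and second wild type arrays, and 0.14 on the authors' values.

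Pm20d1 was low but detected on all 6 arrays. It read 6.73, 6.83 and 7.14 log2 in wild type and 6.36, 6.44 and 6.72 in null tissue (replicates 1 to 3). Every null array lay below every wild type array by a narrow margin after normalisation. The raw intensities, at 168, 202 and 220 in wild type and 182, 177 and 201 in null tissue, overlapped. The difference of -0.39 ± 0.18 log2 (SE, adjusted p = 0.255 in limma) had a 95% confidence interval of -0.80 to 0.02, and was -0.18 with median scaling.

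The 2 scalings of the arrays set a different zero. The middle of the differences of all tested probes lay at -0.05 log2 under quantile scaling and at 0.08 under median scaling, a shift of 0.13, and the share of rises among changed probes was 69.2% and 85.6% (897 higher and 399 lower against 1359 and 228). Measured from that median, Ckb was higher by 1.87 and 1.76, Alpl by 1.01 and 1.06, and Slc6a8 by 0.38 and 0.37 under the respective scalings. Gamt differed by -0.06 and -0.04 from it, Atp2a2 by 0.14 and 0.00461, and Pm20d1 by -0.34 and -0.27.

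Skeletal muscle transcripts were present on these arrays in unequal amounts, and Ckmt2 and Atp2a2 are also genes of muscle. Of 22 contractile genes of skeletal muscle (such as Acta1, Myh4 and Tnnt3), 20 were tested, and none rose or fell (7.84% of all tested genes did either). The mean of their deviations from the wild type mean was 0.10, -0.06 and -0.03 log2 in wild type and 0.64, -0.01 and -2.07 in null tissue (replicates 1 to 3). Null replicate 3 was thus low and null replicate 1 somewhat high, with null replicate 2 at the wild type level. Of 11 slow and cardiac muscle genes, 9 were tested with 0 passing, and their mean was 0.69, -0.09 and -2.76 in null replicates 1 to 3. Null replicate 3 was the lowest array for all 20 contractile genes and for 8 of the 9 slow and cardiac genes, against 14.8% of all tested genes.

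**Figure D3:**
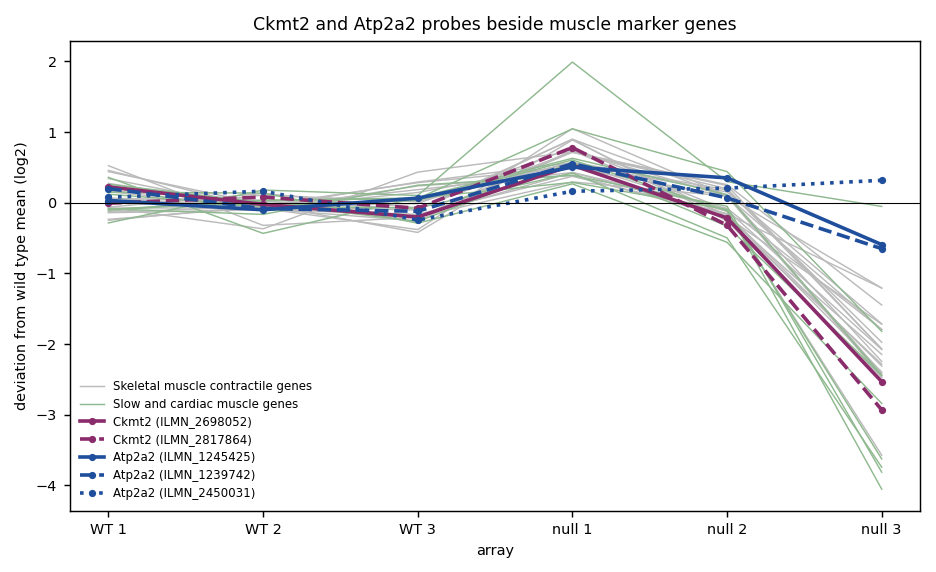
Deviation from the wild type mean (log2) of the tested Ckmt2 probes (purple) and Atp2a2 probes (blue) on each array, beside 20 skeletal muscle contractile genes (grey) and 9 slow and cardiac muscle genes (green); each line joins the values of 1 probe. On null replicate 3 the Ckmt2 probes stand at -2.53 and -2.93 among the muscle genes, the brighter Atp2a2 probes at -0.59 and -0.65, and the third Atp2a2 probe at 0.32.

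On null replicate 3 the Ckmt2 probes deviated by -2.53 and -2.93, inside the range of the contractile genes there (-3.57 to -1.21). The brighter Atp2a2 probes deviated by -0.59 and -0.65, above that whole range, and the probe annotated to a cDNA clone by 0.32. The slow and cardiac genes ran from -4.05 to -0.05 there, with a median of -2.84. The brighter Atp2a2 probes lay inside that range, though only Actc1 of that list was higher than them. Ckm, the muscle creatine kinase, which was named after its values were seen, deviated by -2.56 (wild type mean 12.51, null replicate 3 at 9.94). The genes whose pattern over the 6 arrays was most like that of Ckmt2 were Myh1, Tnni1 and Ddit4l (Pearson r = 0.998, 0.998 and 0.997 among 2355 genes spanning at least 1 log2), of which Myh1 and Tnni1 are sarcomere genes. Those most like the brightest Atp2a2 probe were Fbxo32, a ubiquitin ligase of muscle, Lrrc14b and the muscle protein Csrp3 (r = 0.988, 0.976 and 0.966).

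With the contractile list's level as a covariate in the fit, the difference of Ckmt2 was -0.20 ± 0.17 log2 (SE, adjusted p = 0.583 in limma), and its SE was far smaller than the 0.64 without it. That of Atp2a2 was 0.29 ± 0.17 (adjusted p = 0.371). Neither passed with the covariate or without it. The rises of Ckb and Alpl were as large with the covariate, at 1.81 ± 0.17 (adjusted p = 8.22e-04) and 0.95 ± 0.17 (adjusted p = 0.0119). They were also as large on null replicate 3, where muscle transcripts were lowest, at 1.83 and 1.03 above the wild type mean, and on null replicate 2, where muscle stood at the wild type level, at 1.94 and 0.90.

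Transcripts typical of other cell types moved with genotype on the same arrays. Of 10 macrophage markers, 9 were tested (such as Adgre1) and 9 rose, against 5.73% of all tested genes. Cd68, also on the list, had no probe named here. The mean of the 9 was -0.17 to 0.23 log2 from the wild type mean in wild type and 1.98, 2.15 and 2.02 in null replicates 1 to 3. Trem2 was detected on 0 of 3 wild type arrays, so only its null arrays brought it into the test. Of 13 hepatocyte markers, 9 were tested (such as Apoa1) and 8 rose, while Alb was detected on too few arrays to be tested. The mean of the 9 stood at -0.43 to 0.70 in wild type and 4.85, 2.05 and 2.45 in null replicates 1 to 3. Fga was detected on 0 of 3 wild type arrays, Ahsg and Hpx on 1, and Ambp and Fgg on 2. These genes were tested because of their null arrays, and for such genes the filter itself favours a rise. The null array highest for hepatocyte genes, replicate 1, was also the one highest for Gamt, at 0.51 above the wild type mean. On null replicates 2 and 3, where the hepatocyte list was high too, Gamt stood below that mean, at -0.47 and -0.36. Null replicate 1 was also the highest array for the contractile list, at 0.64. Ckb and Alpl were alike on the null arrays, at 1.69 to 1.94 and 0.90 to 1.03, as the macrophage list was. With the hepatocyte level as a covariate, added after seeing the data, Ckb still passed (2.07 ± 0.30, adjusted p = 0.0349). Alpl did not (0.91 ± 0.31, adjusted p = 0.311), in a fit that made 61 calls over all probes against 1296 without the covariate. Gamt stood at -1.06 ± 0.33 with it (adjusted p = 0.280) and Slc6a8 at 0.16. The part of macrophages in either rise was not tested.

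**Figure D4:**
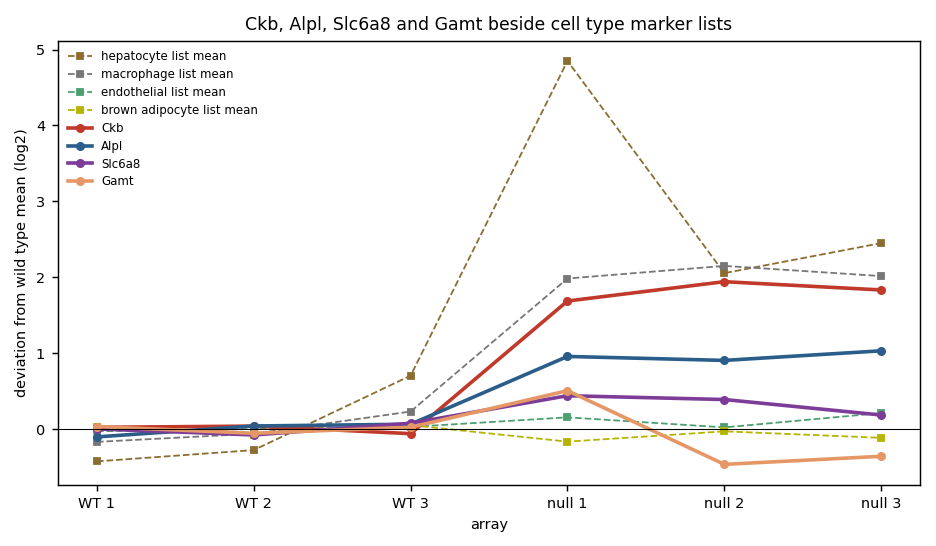
Deviation from the wild type mean (log2) of Ckb, Alpl, Slc6a8 and Gamt (solid lines) on each array, beside the mean deviation of the hepatocyte, macrophage, endothelial and brown adipocyte marker lists (dashed lines); each line joins the values of 1 gene or list. Ckb stands at 1.69 to 1.94 and Alpl at 0.90 to 1.03 on the null arrays, while the brown adipocyte list stays between -0.17 and -0.03.

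No marker of the fat cell itself was called higher, where 5.73% of all tested genes were called higher and 2.11% lower. All 10 brown adipocyte markers were detected, with 0 higher and 1 lower, Prdm16, a factor of brown fat identity, at -0.71 ± 0.15 log2 (SE, adjusted p = 0.0249 in limma). The mean of the 10 lay between -0.17 and -0.03 on the null arrays, with 4 differences above 0 and 6 below. Among the latter, Ppargc1a stood at -0.69 ± 0.22 but missed the threshold (adjusted p = 0.0990 in limma). Ucp1, the uncoupling protein of the classical route, was bright in both genotypes (intensities of 26902 to 34112) and differed by -0.12 ± 0.15 (adjusted p = 0.704). Every null array lay below every wild type array for Ucp1, which held for 13.8% of all tested genes. Of 7 adipocyte markers 5 were tested, with 0 higher and 1 lower by its brightest probe, Lep, the gene of leptin, at -1.89. Fabp4, also tested, lay near background (intensities of 118 to 151), so its lack of a call says little. Pparg, a master factor of adipocytes, missed on its brightest probe (-0.64, adjusted p = 0.0828) and was lower on 2 others, at -1.58 and -0.74 (adjusted p = 0.00202 and 0.0485 in limma). Of 9 tested endothelial markers 1 rose, Cldn5, a tight junction protein, by 1.09, and of 5 smooth muscle, 2 neutrophil and 4 Schwann cell and nerve markers none passed. Cd36 itself could not check the labels, since its 1 named probe was detected on 1 of 3 wild type and 0 of 3 null arrays.

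The pattern of Ckb over the arrays was most like that of Trib3, a pseudokinase induced by amino acid stress, Map7, a microtubule-binding protein, and Mal, a membrane proteolipid (r = 0.999, 0.999 and 0.998 over 6 arrays, among 2355 genes). They rose by 2.88, 1.18 and 2.23 log2 in null tissue. Alpl ran most like Col6a1, a collagen chain, Oasl2, an interferon response gene, and Mst1r, a receptor tyrosine kinase (r = 0.999, 0.997 and 0.996), which rose by 1.00, 1.20 and 0.89. With all null arrays above all wild type arrays, such values of r mostly describe the step between genotypes.

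No partner of the creatine cycle passed the test. Of 17 genes of creatine synthesis, phosphagen transfer and adenylate exchange, 12 were tested. Of these 0 rose and 0 fell, against 5.73% and 2.11% of all tested genes, so that a list of this size could hold no call without being unusual. Their median was 0.06 log2 (1 gene was higher and none lower at an unadjusted p under 0.05 in limma, and no setting made a call). Ahcy, which clears the by-product of methylation by Gamt, was highest on null replicate 1. It read 6.66, 6.56 and 6.95 log2 in wild type and 8.46, 7.11 and 7.44 in null replicates 1 to 3 (difference 0.95 ± 0.32 SE, adjusted p = 0.117), with a second probe at 0.10. Oat, an aminotransferase of ornithine, differed by 0.31 (adjusted p = 0.335). Without null replicate 1, Ahcy differed by 0.55. Ak1, an adenylate kinase, differed by -0.45 (adjusted p = 0.396), and by -0.12 without null replicate 3, on which it stood at -1.10 from the wild type mean. Vdac2, a channel of the mitochondrial outer membrane, differed by -0.26 (adjusted p = 0.421), and by -0.15 without wild type replicate 1.

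Among 37 genes of calcium stores and calcium flux, 30 were tested, 3 rose and 0 fell, against 5.73% and 2.11% of all genes, with a median of -0.14 log2. Atp2a3 encodes SERCA3, a calcium pump of blood cells and endothelium. It read 9.01, 8.56 and 8.88 log2 in wild type and 10.80, 10.86 and 10.67 in null tissue (replicates 1 to 3). The groups were far apart, and the gene rose by 1.96 ± 0.17 (SE, adjusted p = 5.06e-04 in limma), with its other probes up by 2.12 and 0.88. Slc8b1, the mitochondrial sodium-calcium exchanger, rose by 0.88 ± 0.17 (adjusted p = 0.0170). Its wild type arrays lay between 8.71 and 9.17 and its null arrays between 9.71 and 9.88. Its call ended when the first or second wild type array or null replicate 2 was left out. Asph, whose locus also encodes the junctional protein junctin, rose by 0.65 ± 0.16 on its brightest probe (adjusted p = 0.0391), a call that ended when any single array of the 6 was left out, while its 5 other probes lay between -0.85 and 0.57 and did not pass. Micu2, a gatekeeper of the mitochondrial calcium uniporter, differed by 0.44 (adjusted p = 0.125), and by 0.26 on another probe (adjusted p = 0.490). Null replicate 3 was the lowest array for 12 of the 30 genes, against 14.8% of all tested genes. Muscle genes such as Ryr1 and Casq1 were among the 12.

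Relatives of Alpl and Pm20d1 were mostly at background. Of 11 genes, 4 were tested, and 0 rose and 0 fell, against 5.73% and 2.11% of all tested genes, which says little for so few genes. Their median was 0.11 log2 (2 were higher and none lower at an unadjusted p under 0.05 in limma, and no setting made a call). Phospho1, a phosphatase that acts on phosphocholine and phosphoethanolamine, differed by 0.67 ± 0.27 (SE, adjusted p = 0.200) and Pter, an amidohydrolase of N-acetyltaurine, by 0.47 ± 0.17 (adjusted p = 0.148). For both, every null array lay above every wild type array, which held for 15.6% of all tested genes. Phospho1 was 0.33 without wild type replicate 3, its lowest array at 7.52. Pm20d2, a peptidase related to Pm20d1, differed by -0.41 (adjusted p = 0.275), and by -0.19 on the authors' values. Ank, which exports pyrophosphate, differed by -0.24 (adjusted p = 0.501), and by -0.38 without null replicate 3.

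**Figure D5:**
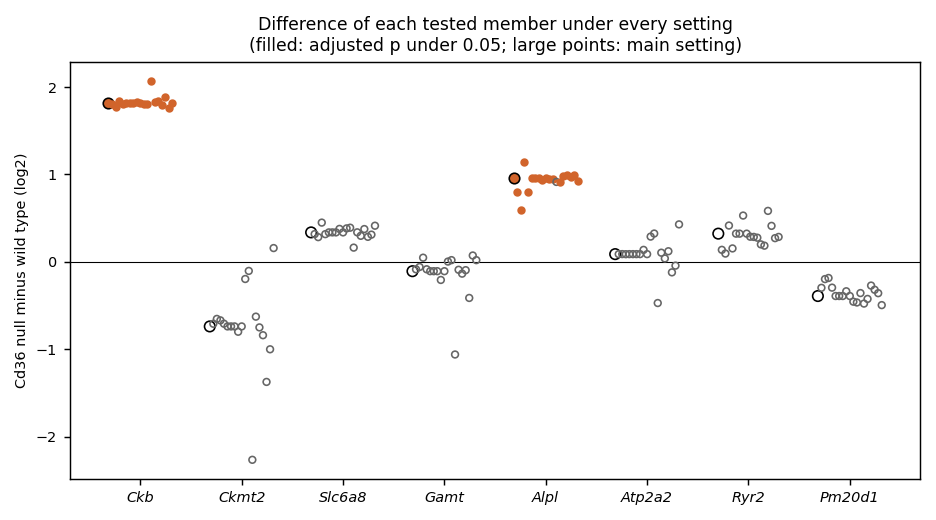
Difference of Cd36 null minus wild type (log2) of each tested member under the main setting (large points) and each alternative (small points); filled points have an adjusted p under 0.05. Ckb keeps between 1.76 and 2.07 and stays past the threshold in all of them, Alpl lies between 0.60 and 1.14 and misses it in 1, and Ckmt2, Gamt and Atp2a2 fall on both sides of 0.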

How the data were processed

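Total RNA of brown adipose tissue was measured on 6 Illumina bead arrays, 3 per genotype. The deposited scanner table holds intensity per probe and array, not normalised, with a detection p-value beside it, per the file headers. The authors' processed table holds log2 values made with limma, per the submitters' processing notes, where no version is given. It differed from neqc with an offset of 50 by at most 0.024 log2, and its column medians lay between 5.92 and 5.93. No array was identical to another (0 pairs).

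Intensities were processed with neqc (offset 16) in limma 3.58.1 under R 4.3.3, with the background inferred from the detection p-values. Probes with a detection p-value under 0.05 on 3 or more arrays were tested with lmFit and eBayes, and adjusted by Benjamini-Hochberg over 17912 probes. Differences subtract wild type from null, in log2 units, and are understated for dim probes by the offset. Of 45267 probes, 34875 had 1 gene symbol, 18 several and 10374 none here. A further 970 were in the scanner table only and served background correction and normalisation.

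The number of arrays limits the precision. The fit was tested on simulated data. Members and lists were chosen with earlier results of these data known. Named genes are the members, up to 4 of smallest p in each of 3 pathway lists, the 3 genes most alike in pattern to each member spanning at least 1 log2, and Ucp1. Alternatives covered background, scaling, offset, filter, variance model, array weights, a replicate block, muscle level as a covariate and leaving out each array. Covariates of slow muscle and hepatocyte level, and the alternatives for the pathway lists, were added after seeing the data. Names came from the platform annotation, and no probe coordinate is printed.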

Additional observations from a re-analysis of the deposited data

How the results depend on the processing

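Ckb passed in all 18 alternatives (1.76 to 2.07 log2, highest adjusted p = 0.0349 in limma). Alpl passed in 17 of 18 and missed with the hepatocyte level as a covariate (0.91). That list separates the genotypes (lowest null array 2.05, highest wild type array 0.70), so its covariate widens the SE. Members called higher numbered 2 in 18 of 19 alternatives and 1 with that covariate, and 0 were lower in all 19. The other members never passed. Ryr2 was not tested where detection on all 6 arrays was required.

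Atp2a2 turned to -0.47 with the hepatocyte covariate and ranged from -0.12 to 0.43 when single arrays were left out. Ckmt2 ranged from -1.37 to 0.16 over single arrays left out, and was -2.26 with the hepatocyte covariate. Gamt was -1.06 with that covariate, turned to 0.048 with median scaling, 0.00375 with the skeletal muscle and 0.020 with the slow muscle covariate, and ranged from -0.41 to 0.073 over single arrays left out. With the hepatocyte covariate Ahcy turned to -0.43 and Ank to 0.016. The cause of each turn was not tested.

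Calcium genes called higher numbered 5 without background correction and with array weights, 1 with the replicate block, 0 with the hepatocyte covariate and 1 to 2 over single arrays left out, with Atp2a3 called in the block and in each of those. The call of Asph also ended with the muscle covariates (0.60 and 0.59).

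Replicate numbers pair nothing in the labels, and same-numbered samples deviated together at r = 0.08, -0.02 and 0.03. With the replicate block, Ckb was 1.82 (adjusted p = 0.00569) and Alpl 0.96 (adjusted p = 0.0254), with 2 members higher and 0 lower. Slc8b1 and Asph missed at adjusted p = 0.0514 and 0.0702. Over all probes, 1296 calls became 2388 with array weights, and 704 and 589 without the first and second wild type arrays and 724 without null replicate 2. Signal near background limits Ckmt1, Gatm and Ryr2.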
